A study of Penicillium oxalicum with 9 samples.

Results

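A set of 73 genes of the filamentous fungus Penicillium oxalicum was nearly silent or strongly lowered in 1 of 3 sequencing libraries of the control strain Ku70, the library F, and well expressed in the other two, S and T. The set was chosen on these values: a gene entered where its FPKM (fragments scaled to gene length and sequencing depth) was at least 10 in both Ku70 S and Ku70 T and at least 8 times the Ku70 F value in both. Of 9834 genes listed, 79 met this, and 6 of them were then left out because their lowest MuPOX01907 value was at least 3 times the highest value of the other 6 libraries. The like condition for MuPOX08340, at 2 times, left out 0 genes. The low level in Ku70 F is therefore no finding. The question was where the mutants stand for these genes, at the level of Ku70 F or at that of Ku70 S and T.

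Transcripts were measured in mycelium by RNA sequencing in 3 libraries each of MuPOX01907, MuPOX08340 and Ku70, lettered F, S and T in each strain. MuPOX01907 and MuPOX08340 are mutants of the genes POX01907 and POX08340, studied as regulators of amylase genes, and Ku70, the control, carries a mutation in a gene that fungi need for non-homologous end joining of DNA. Sample titles state 1% starch for both mutants and 1% Avicel, a microcrystalline cellulose, for Ku70, each for 24 h, whereas the growth protocol given for all 9 libraries names spores of the Ku70 mutant and Avicel. Strain and stated medium cannot be told apart where a mutant is set against Ku70. No label says that the 3 libraries of a strain came from separate cultures, so a p-value here measures the spread between libraries, which may be technical.

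Filamentous fungi of this kind live on plant polymers, and they switch the genes for secreted hydrolases on and off with the carbon source. Cellulose and its breakdown products induce cellulase and xylanase genes, starch and maltose induce amylase genes, and easily used sugars repress both. Genes that serve a common pathway in filamentous fungi often lie side by side and are expressed together. The files give IDs without gene names, and 0 of the 9834 IDs matched the available RefSeq gene table, so that what the 73 genes encode is not described here and no sequence is shown.

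POX01907 had at most 0.04 FPKM in the MuPOX01907 libraries and POX08340 was listed at 0 in the MuPOX08340 libraries, the strains labelled as mutants of these genes. POX08340 was also lower in MuPOX01907, at 8.26, 8.01 and 7.28 FPKM, against 30.6, 35.7 and 30.6 FPKM in Ku70 F, S and T. POX01907 had 24.2, 20.4 and 19.9 FPKM in MuPOX08340 F, S and T and 22.9, 17.1 and 16.5 FPKM in Ku70. Ku70 F stood apart from its strain in other ways as well. In log2(FPKM + 1) over all genes, which do not count as replicates, Pearson's r was 0.918 between Ku70 F and S and 0.909 between F and T, against 0.985 between S and T, and it lay between 0.978 and 0.995 within the mutants. A set of 4 cellulase IDs recalled from literature on strain HP7-1 (POX01166, POX04786, POX05587 and POX07535) reached 3863 FPKM in Ku70 F at the median. Medians were 1.15 to 4.78 FPKM over the other 8 libraries, including Ku70 S and T with the same stated cellulose medium. The weakest of the 4 in Ku70 F, POX07535, had 87.5 FPKM there and 4.72 to 10.3 FPKM elsewhere. For 3 xylanase IDs (POX00063, POX06783 and POX08484) the median was 1405 FPKM in Ku70 F, and 18.5 to 25.9 FPKM elsewhere. The weakest of the 3 in Ku70 F, POX06783, had 826.9 FPKM there and 18.8 to 70.1 FPKM elsewhere. Whether the low values of the 73 genes and the high cellulase values in Ku70 F have a common source was not tested. Ku70 S and T had the low cellulase values of the libraries with stated starch. For the 2 starch enzyme IDs POX01356 and POX09352, Ku70 F lay between Ku70 S and T. POX01356 had 199.8, 403.7 and 121.4 FPKM in Ku70 F, S and T, and POX09352 had 34.9, 46.2 and 23.3 FPKM. Whether the stated medium of Ku70 S and T is right is in doubt and was not tested. A level nearer to Ku70 F or to Ku70 S and T below refers to those libraries and not to a medium. Of the 7 cellulase and xylanase IDs, the 2 starch enzyme IDs, the regulator ID POX03446 and the 2 mutated genes, 0 belonged to the set.

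The median level of the 73 genes was 48.7, 54.6 and 49.8 FPKM in MuPOX01907 F, S and T, 49.1, 45.2 and 60.03 FPKM in MuPOX08340 F, S and T, and 3.91, 90.8 and 96.6 FPKM in Ku70 F, S and T. The medians of all 6 mutant libraries lay between that of Ku70 F and those of Ku70 S and T. Together the genes took 3.0003%, 3.22% and 3.08% of the reads of MuPOX01907 F, S and T, 4.53%, 3.86% and 3.81% of those of MuPOX08340, and 0.232%, 4.55% and 4.86% in Ku70 F, S and T.

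**Figure D1:**
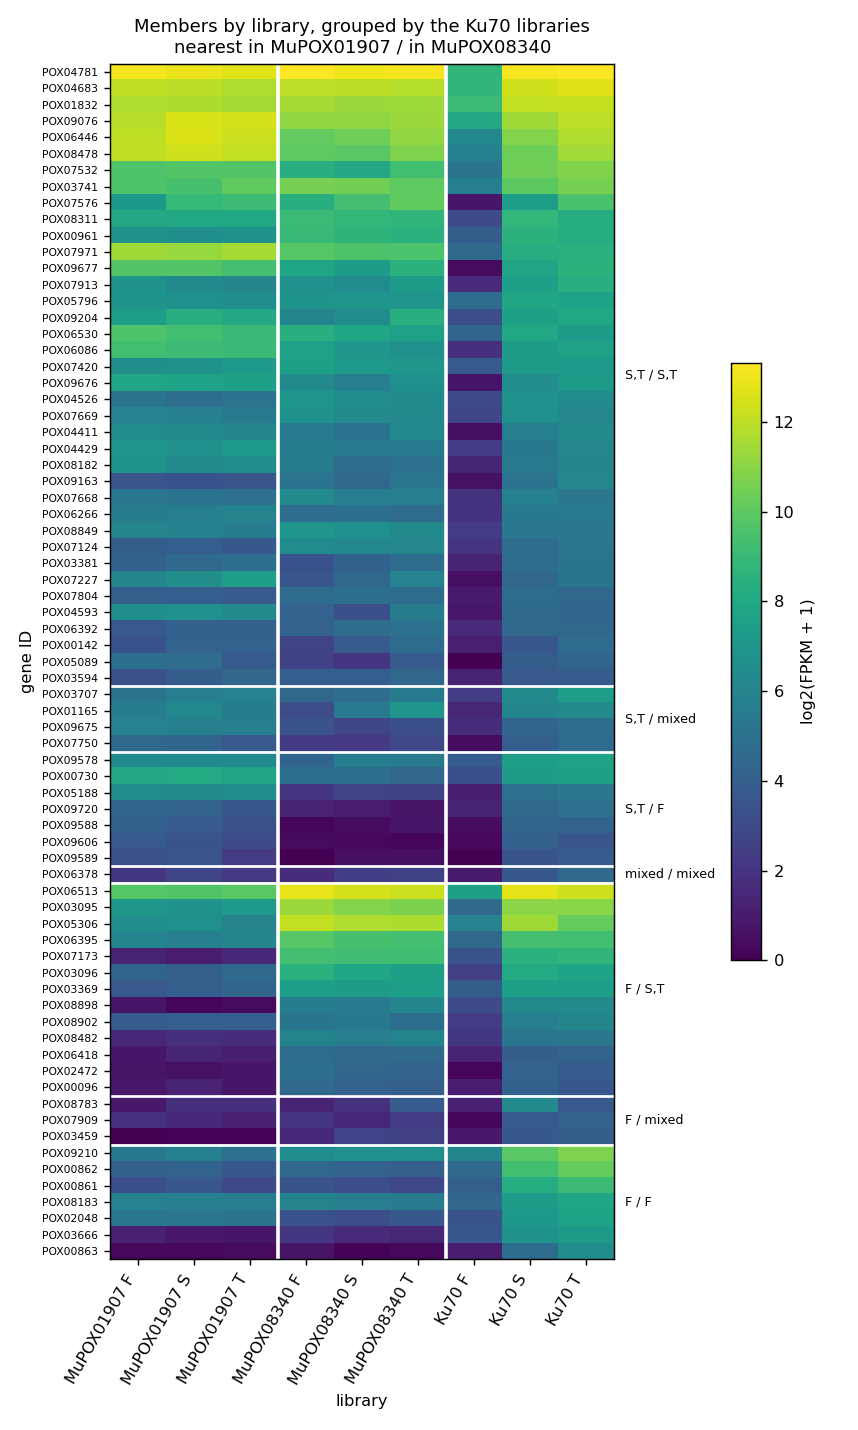
Level of each of the 73 genes (rows, by gene ID) in the 9 libraries (columns), as log2(FPKM + 1) on a colour scale. White lines separate the strains and the groups of genes; the labels at the right give the Ku70 libraries that a gene was nearest to in MuPOX01907, then in MuPOX08340. The Ku70 F column is darker than the Ku70 S and T columns for every gene by the choice of the set, and the mutant columns are as dark in some groups only.

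In the 71 genes with a Ku70 F value above 0, the lower of Ku70 S and T exceeded Ku70 F by a median of 18.6-fold, with a range from 8.03 to 717.6-fold. The excess was at least 16-fold for 38 of them, at least 32-fold for 19 and at least 100-fold for 4. The extreme gene was POX09677, with 0.300 FPKM in Ku70 F, 215.3 FPKM in S and 374.6 FPKM in T. POX07576 followed with 0.780, 176.1 and 710.4 FPKM in F, S and T, and POX09676 with 0.670, 90.8 and 150.0 FPKM. All 3 of these were expressed in every mutant library.

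The genes POX05089 and POX09589 had 0 reads in Ku70 F. Against a floor of 3 counts in that library, they were at least 25.6-fold and at least 14.5-fold higher in the lower of Ku70 S and T. At the other end, POX08183, POX09675 and POX01832 lay just inside the threshold at 8.03, 8.11 and 8.19-fold, and POX03389, POX03629 and POX04292 just outside it at 7.93, 7.83 and 7.64-fold.

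The set held some of the most abundant transcripts as well as weak ones. The mean of Ku70 S and T was at least 1000 FPKM for 12 genes and at least 100 FPKM for 36. The 5 highest were POX04781, POX06513, POX04683, POX01832 and POX09076. POX04781 had 8629, 7909 and 6545 FPKM in MuPOX01907 F, S and T, 9909, 8450 and 9110 FPKM in MuPOX08340 F, S and T, and 438.7, 8919 and 10229 FPKM in Ku70 F, S and T. Ku70 F was thus low and the other 8 libraries lay between 6545 and 10229 FPKM.

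Each mutant library was then placed for each gene on a scale on which Ku70 F is 0 and the mean of Ku70 S and T is 1, in log2(FPKM + 1), and a gene was assigned to the nearer side where all 3 libraries of a mutant lay on it. In MuPOX01907, 23 genes lay nearer Ku70 F, 49 nearer Ku70 S and T, and 1 was mixed. In MuPOX08340, 14 lay nearer Ku70 F, 51 nearer Ku70 S and T, and 8 were mixed. The median position was 0.833 in MuPOX01907 and 0.862 in MuPOX08340. These are descriptions without a test, because Ku70 values chose the set. The members' shares were 31.5% nearer Ku70 F and 67.1% nearer S and T in MuPOX01907, and 19.2% and 69.9% in MuPOX08340. Among the 7081 genes that reached 10 FPKM in any Ku70 library, 36.1% lay nearer Ku70 F and 49.3% nearer S and T in MuPOX01907, and 21.8% and 51.8% in MuPOX08340. The shares nearer Ku70 F are close to those of all such genes, and the shares nearer S and T are higher in the members. The comparison is not a like one. All such genes include those with little difference between Ku70 F and Ku70 S and T, for which the nearer side means little. Nothing particular about the set is read from these shares. In each mutant 7 genes had a mean position within 0.1 of the midpoint. The placement depends on the scaling between libraries. On FPKM rescaled by TMM, a scaling between libraries, 18 genes lay nearer Ku70 F in MuPOX01907 and 14 in MuPOX08340.

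**Figure D2:**
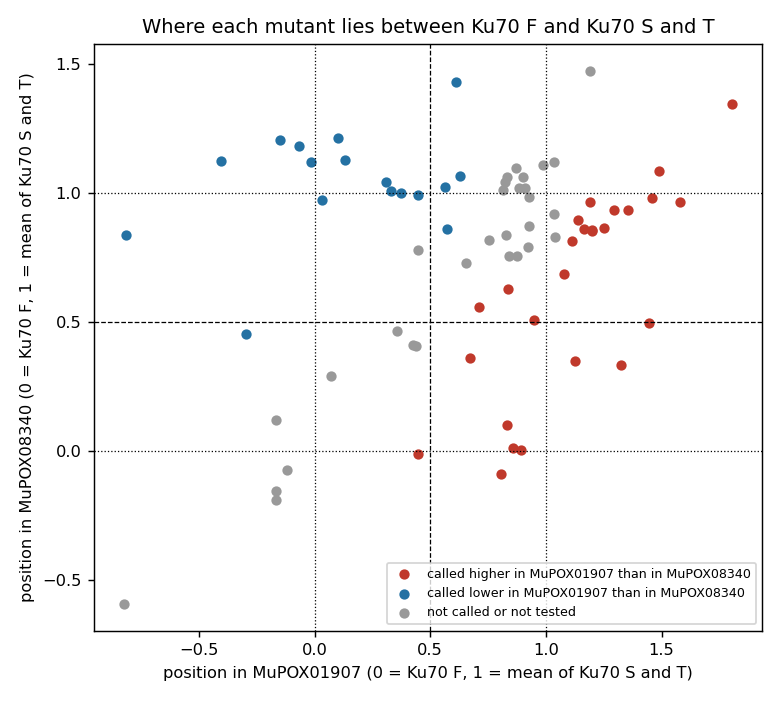
Mean position of each gene in MuPOX01907 (x axis) and in MuPOX08340 (y axis) on the log2(FPKM + 1) scale on which Ku70 F is 0 and the mean of Ku70 S and T is 1; dashed lines mark the midpoint. Colours give the call between the mutants, 26 genes higher and 17 lower in MuPOX01907. Of the 73 genes, 38 lie past the midpoint towards Ku70 S and T in all libraries of both mutants. Genes on the Ku70 F side in 1 mutant only are spread from below 0 to just under the midpoint.

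Both assignments together gave 38 genes nearer Ku70 S and T in both mutants and 7 nearer Ku70 F in both. A further 13 genes lay nearer Ku70 F in MuPOX01907 and nearer S and T in MuPOX08340, and 7 lay the other way round. The remaining 8 were mixed in at least 1 mutant. Across the 73 genes the Pearson correlation of log2(FPKM + 1) was 0.637 to 0.645 between the MuPOX01907 libraries and Ku70 F, 0.706 to 0.714 with Ku70 S and 0.727 to 0.729 with Ku70 T. For the MuPOX08340 libraries it was 0.736 to 0.783 with Ku70 F, 0.842 to 0.861 with Ku70 S and 0.809 to 0.825 with Ku70 T. These correlations are across genes of shared libraries and carry no test.

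The comparison of the mutants with each other uses no Ku70 value and asks whether the genes' levels differ between mutants whose titles state the same medium. Of the 73 genes, 72 entered the test and 43 were called between MuPOX01907 and MuPOX08340, with 26 higher and 17 lower in the first-named mutant (edgeR quasi-likelihood test on rounded expected counts of the 6 mutant libraries, adjusted p under 0.05 over all 8478 genes tested and at least 2-fold). These were 35.6% and 23.3% of the members, against 11.8% called higher and 10.8% called lower over all genes tested. The sets are unlike, because members reach at least 10 FPKM in Ku70 S and T and all genes tested include weaker ones. In a fit on all 9 libraries, in which Ku70 shares the estimate of the spread, 7 of the 26 and 13 of the 17 kept their call. The rule picks genes spread in Ku70, and how much of the loss goes back to this was not tested. The rule read mutant values when it left out 6 genes for being high in MuPOX01907, all 6 of which were called higher, so the members' shares are not fully independent of it. The median absolute log2 fold change was 1.56 over the members and 0.46 over all genes tested. FPKM values of the mutants did not overlap for 51 members (69.9%), close to the 67.2% of all genes tested. Over all genes tested the log2 fold change had a median of -0.03 with the TMM scaling used and -0.39 with library totals alone, so fold changes are given relative to the TMM scaling, while FPKM values carry the library totals.

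The groups by nearness were formed on the same mutant values that the test between the mutants uses. Where the mutants lay on opposite sides, the grouping itself sets the direction of the difference, and the counts and values of these 20 genes are descriptions. Where the mutants lay on the same side, the grouping bears on the size of the difference, so the counts called in those groups are descriptions too. Among the 13 genes on the Ku70 F side in MuPOX01907 only, the median log2 fold change was -3.74, and 12 of the 13 were among the genes called lower in MuPOX01907. POX07173 had 1.53, 0.99 and 1.80 FPKM in MuPOX01907 F, S and T, against 645.7, 603.4 and 593.1 FPKM in MuPOX08340 and 9.53, 362.8 and 422.4 FPKM in Ku70 F, S and T. The MuPOX01907 libraries thus lay below Ku70 F and the MuPOX08340 libraries above all of Ku70, and the mutants differed by a log2 fold change of -8.37 (SE 0.208, edgeR adjusted p = 4.47e-07). POX08898 had 0.680, 0.190 and 0.290 FPKM in MuPOX01907, against 49.1, 45.2 and 67.2 FPKM in MuPOX08340 and 7.41, 77.8 and 75.9 FPKM in Ku70 F, S and T. Its 12 reads in the 3 MuPOX01907 libraries stood against 1672 in MuPOX08340, so that the level was 140.3-fold higher in MuPOX08340 (95% interval 80.1 to 272.0, exact binomial, counting error only).

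POX05306 belonged to the same group at a higher level, with 97.3, 101.4 and 61.4 FPKM in MuPOX01907, 4325, 3364 and 3295 FPKM in MuPOX08340 and 59.6, 2773 and 1138 FPKM in Ku70 F, S and T (log2 -5.04, SE 0.237, edgeR adjusted p = 5.77e-06). POX02472 averaged 0.620 ± 0.111 FPKM in MuPOX01907 and 22.5 ± 6.08 in MuPOX08340 (SD, n = 3 each), and POX08482 averaged 2.25 ± 0.386 and 59.1 ± 7.14 FPKM. In both, no library of one mutant overlapped the other. The abundant gene POX06513 had 884.1, 837.2 and 951.5 FPKM in MuPOX01907, 7181, 5736 and 4813 FPKM in MuPOX08340, and 188.8, 7013 and 5065 FPKM in Ku70 F, S and T (log2 -2.37, SE 0.153, edgeR adjusted p = 1.98e-05). Its position of 0.449 in MuPOX01907 lay close to the midpoint, so its assignment to the Ku70 F side is a narrow one. POX08902 was the member of the group below 2-fold, at 14.5 ± 0.4997 FPKM in MuPOX01907 and 34.4 ± 6.80 in MuPOX08340 (SD, n = 3 each; log2 -0.89, SE 0.153, edgeR adjusted p = 0.0022). In MuPOX08340, 5 of the 13 genes exceeded both Ku70 S and Ku70 T in all 3 libraries. The group was formed on MuPOX08340 values and the same share was not computed over all genes, so this count is a description.

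The 7 genes on the Ku70 F side in MuPOX08340 only, whose direction the grouping sets likewise, had log2 fold changes from 1.43 to 5.60 and were among the genes called higher in MuPOX01907. POX09606 had 12.04, 10.2 and 7.62 FPKM in MuPOX01907 F, S and T, against 0.330, 0.240 and 0.190 FPKM in MuPOX08340 and 0.240, 15.7 and 10.8 FPKM in Ku70 F, S and T (log2 5.60, SE 0.280, edgeR adjusted p = 6.97e-06). POX09588 had 16.2, 13.4 and 8.76 FPKM in MuPOX01907, 0.180, 0.360 and 0.730 FPKM in MuPOX08340, and 0.360, 19.2 and 17.8 FPKM in Ku70. For both genes MuPOX08340 was at the level of Ku70 F and MuPOX01907 near that of Ku70 S and T. These are low levels: POX09588 had 212 reads in MuPOX01907 against 7 in MuPOX08340, a ratio of 30.1 (95% interval 14.3 to 75.7, exact binomial, counting error only), and POX09589 had 100 against 4, a ratio of 24.8 (9.40 to 92.9).

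POX05188 went beyond the Ku70 range in one mutant, with 89.8, 80.5 and 85.7 FPKM in MuPOX01907, 3.19, 5.61 and 4.86 FPKM in MuPOX08340, and 1.16, 30.3 and 37.9 FPKM in Ku70 F, S and T (log2 4.58, SE 0.216, edgeR adjusted p = 5.77e-06). POX00730 did so too, with 264.1, 281.8 and 215.6 FPKM in MuPOX01907, 28.2, 29.1 and 20.1 FPKM in MuPOX08340, and 8.66, 163.9 and 188.1 FPKM in Ku70 (log2 3.66, SE 0.178, edgeR adjusted p = 6.20e-06). POX09720 averaged 16.4 ± 3.96 FPKM in MuPOX01907 and 1.04 ± 0.451 in MuPOX08340 (SD, n = 3 each). The group was completed by POX09578, at 81.5 ± 0.999 and 38.6 ± 17.1 FPKM.

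**Figure D3:**
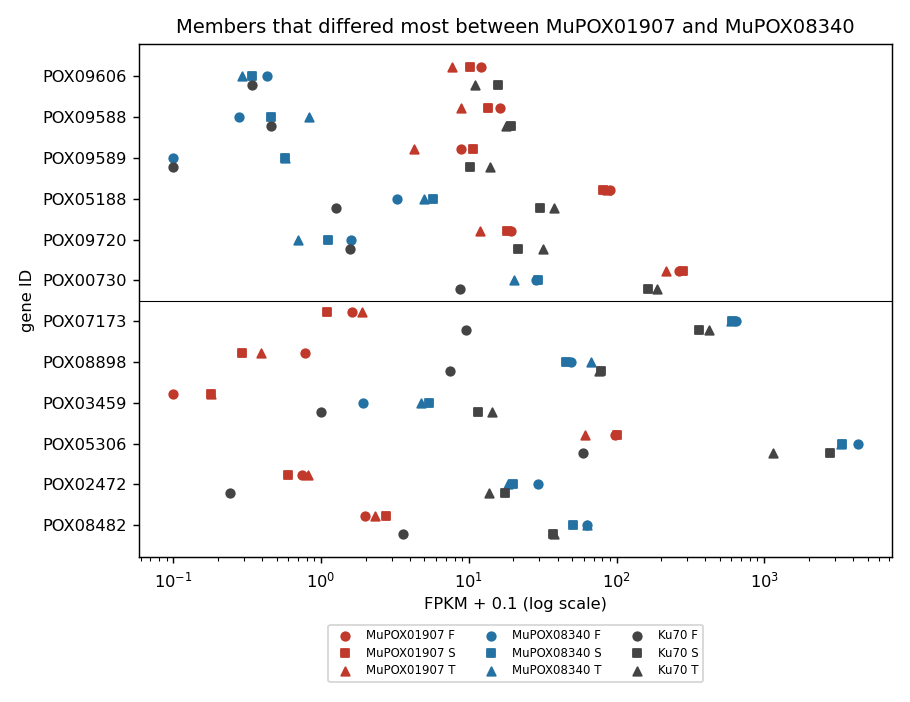
FPKM + 0.1 (x axis, log scale) in each library for the 6 genes with the largest rise (upper block) and the 6 with the largest fall (lower block) in MuPOX01907 relative to MuPOX08340 among called members whose libraries did not overlap; colours give the strain and symbols the library letter. In the upper block MuPOX08340 lies beside Ku70 F for POX09606, POX09588, POX09589 and POX09720, and in the lower block MuPOX01907 lies at or below Ku70 F for POX07173, POX08898, POX03459 and POX08482.

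For 7 genes both mutants lay on the Ku70 F side: POX00861, POX00862, POX00863, POX02048, POX03666, POX08183 and POX09210. POX00862 had 15.9, 17.8 and 11.6 FPKM in MuPOX01907, 21.5, 17.0 and 15.2 FPKM in MuPOX08340, and 23.3, 626.7 and 1159.95 FPKM in Ku70 F, S and T, so all 6 mutant libraries lay below Ku70 F. The same held for POX00861, POX00863 and POX03666, and for 4 of the 73 genes in all. POX03666 had 1.30, 0.820 and 0.680 FPKM in MuPOX01907, 3.31, 1.96 and 1.69 FPKM in MuPOX08340, and 11.8, 108.1 and 152.6 FPKM in Ku70. POX09210 averaged 43.1 ± 12.9 FPKM in MuPOX01907 and 98.8 ± 8.93 in MuPOX08340 (SD, n = 3 each), and was the most abundant of the group in Ku70, at 69.1, 974.9 and 1698 FPKM in F, S and T.

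Between the mutants 1 of these 7 was called: POX02048 had 36.6, 38.2 and 34.4 FPKM in MuPOX01907, 9.06, 8.02 and 11.8 FPKM in MuPOX08340, and 9.91, 134.3 and 212.5 FPKM in Ku70 (log2 2.27, SE 0.170, edgeR adjusted p = 3.68e-05). Over all genes tested, 11.8% were called higher and 10.8% lower in MuPOX01907. POX03666 missed the 2-fold minimum (log2 -0.95, SE 0.339, edgeR adjusted p = 0.0491). POX00863 was the gene too weak in the mutants to be tested, with 7 reads in MuPOX01907 and 9 in MuPOX08340.

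The 38 genes near Ku70 S and T in both mutants included the abundant transcripts POX04781, POX04683, POX01832 and POX09076. Of the 38, 15 were higher in MuPOX01907 by the test between the mutants, 4 were lower and 19 were not called. Over all genes tested, 11.8% were called higher and 10.8% lower. The grouping used the same mutant values, so the counts are descriptions. In MuPOX01907 13 of the 38 genes exceeded both Ku70 S and T in all 3 libraries, and in MuPOX08340 4 did. The same share was not computed over all genes, and the rule had left out 6 genes high in MuPOX01907. Nothing particular about the group is read from these counts. POX07971 and POX08849 exceeded Ku70 S and T in all 6 mutant libraries. POX07971 had 2722.0, 2503 and 2902 FPKM in MuPOX01907, 907.6, 785.3 and 745.4 FPKM in MuPOX08340, and 23.2, 308.5 and 351.4 FPKM in Ku70 F, S and T (log2 between the mutants 2.097, SE 0.115, edgeR adjusted p = 9.24e-06). POX08849 had 65.1, 57.8 and 49.8 FPKM in MuPOX01907, 126.6, 101.3 and 82.6 FPKM in MuPOX08340, and 4.21, 39.4 and 37.5 FPKM in Ku70, and missed the 2-fold minimum between the mutants (log2 -0.48, SE 0.166, edgeR adjusted p = 0.0422).

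Among the 5 most abundant genes, POX09076 was called higher in MuPOX01907, at 5206 ± 1180 FPKM against 2366 ± 199 in MuPOX08340 (SD, n = 3 each; log2 1.49, SE 0.184, edgeR adjusted p = 0.00041). POX04781 did not pass the test (log2 0.11, SE 0.129, edgeR adjusted p = 0.519), and POX04683 and POX01832 stayed under 2-fold (log2 0.32 and 0.61). The 8 remaining genes were mixed in at least 1 mutant. Of these, POX03707, POX07750 and POX09675 were called higher and POX03459 lower in MuPOX01907. POX03459 was called on few reads, 2 in MuPOX01907 against 154 in MuPOX08340, a ratio of 77.5 in favour of MuPOX08340 (95% interval 21.1 to 645.8, exact binomial, counting error only), and its MuPOX08340 level of 3.93 ± 1.86 FPKM (SD, n = 3) was itself below Ku70 S and T at 11.5 and 14.3 FPKM.

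Some of the 73 genes carried consecutive ID numbers, a property the rule did not use. There were 6 such runs with 14 genes, 4 of 2 genes and 2 of 3 genes. POX00861, POX00862 and POX00863 formed one run of 3, in which each gene was low in all 6 mutant libraries and in Ku70 F. Their neighbours POX00860 and POX00864 ranged from 0.440 to 5.52 FPKM over all 9 libraries and had no like difference between Ku70 F and Ku70 S and T. Within the run the Ku70 T value exceeded the Ku70 S value in each gene, for POX00863 with 25.0 FPKM in S and 96.6 in T.

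POX09675, POX09676 and POX09677 formed the other run of 3, and all were called higher in MuPOX01907 than in MuPOX08340. POX09677 had 876.4, 861.9 and 660.2 FPKM in MuPOX01907, 225.0, 157.5 and 374.1 FPKM in MuPOX08340 and 0.300, 215.3 and 374.6 FPKM in Ku70 F, S and T (log2 2.01, SE 0.316, edgeR adjusted p = 0.0014). POX09676 and POX09675 had log2 fold changes of 1.82 (SE 0.261, edgeR adjusted p = 0.000889) and 3.15 (SE 0.190, edgeR adjusted p = 1.42e-05). The preceding ID, POX09674, was left out for its MuPOX01907 level of 77.7 ± 10.8 FPKM (SD, n = 3), although it met the Ku70 condition with 0.430, 11.9 and 10.1 FPKM in Ku70 F, S and T. The next ID beyond it, POX09673, lay between 5.19 and 9.35 FPKM in all 9 libraries. The ID after the run, POX09678, was weak but differed in the same direction. It had 3.25, 4.31 and 2.93 FPKM in MuPOX01907 and 0.54, 0.27 and 0.54 FPKM in MuPOX08340. In Ku70 F, S and T it had 0, 1.07 and 2.14 FPKM.

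**Figure D4:**
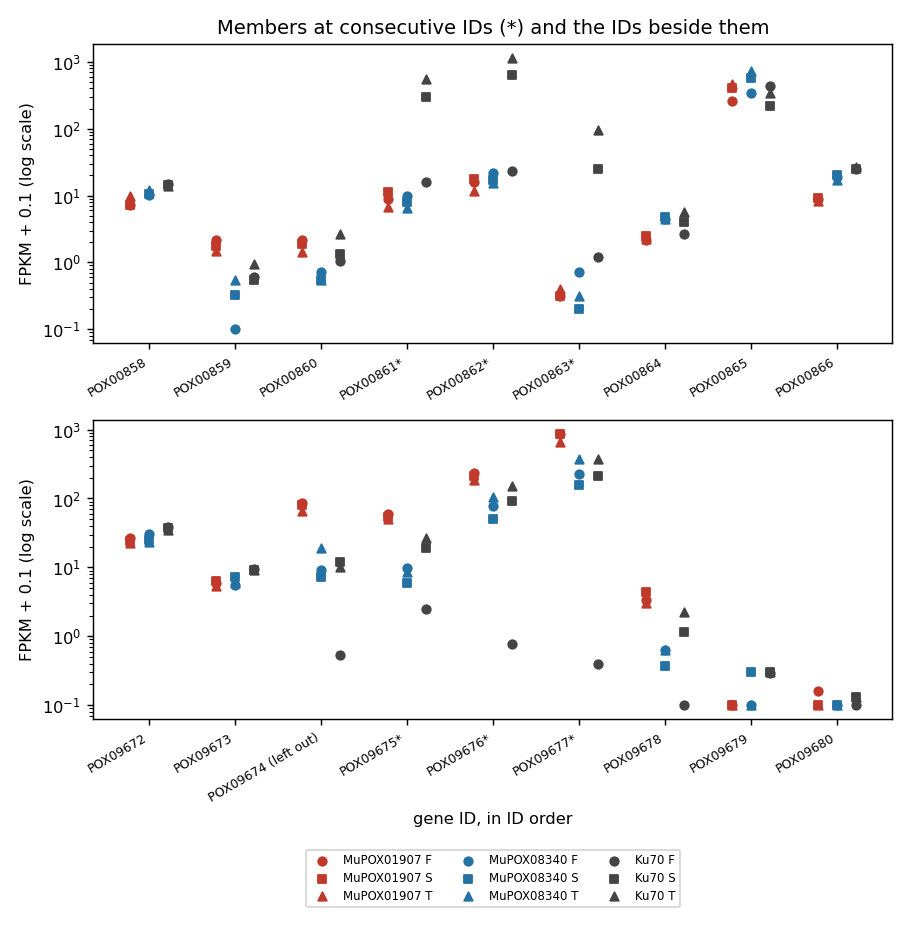
FPKM + 0.1 (y axis, log scale) in each library for the IDs in and beside the runs of 3 consecutive members (marked by an asterisk), in ID order; colours give the strain and symbols the library letter. In the upper panel all 6 mutant libraries lie below Ku70 F for POX00861 to POX00863, and in the lower panel Ku70 F alone is low for POX09676 and POX09677.

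The 4 pairs of consecutive IDs were POX03095 with POX03096, POX07668 with POX07669, POX08182 with POX08183 and POX09588 with POX09589. The genes of a pair were on the same side in both mutants in 3 of the 4. POX03095 had 129.9, 114.7 and 141.5 FPKM in MuPOX01907, against 2578, 1875 and 1678 FPKM in MuPOX08340 and 23.7, 2079 and 1971 FPKM in Ku70 F, S and T. POX03096 followed it with 18.9, 15.6 and 22.1 FPKM in MuPOX01907, 364.6, 228.1 and 187.7 FPKM in MuPOX08340 and 4.66, 278.0 and 211.6 FPKM in Ku70. The pair POX08182 and POX08183 was split: POX08182 was called higher in MuPOX01907 at 99.4 ± 18.7 FPKM against 35.2 ± 11.1 in MuPOX08340, whereas POX08183 was on the Ku70 F side in both, at 53.1 ± 4.28 and 52.0 ± 8.87 FPKM (SD, n = 3 each). The files hold no positions, so that it was not tested whether IDs in sequence are also adjacent in the genome, and reads shared by overlapping genes or close copies cannot be told apart here.

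The members also differed among the libraries of a mutant, a measure in libraries other than those of Ku70. The median ratio of the highest to the lowest FPKM + 1 among the 3 libraries was 1.34 in MuPOX01907 and 1.53 in MuPOX08340. Over all genes with a mean of at least 10 FPKM in the same mutant it was 1.19 (5955 genes) and 1.24 (6504 genes), and over the 58 and 57 members with such a mean it was 1.31 and 1.51. At least 2-fold ratios were seen for 5 members in MuPOX01907 and 17 in MuPOX08340, or 6.85% and 23.3%, against 3.74% and 6.35% of all genes with that mean. The members in these counts were not limited to that mean, so the shares are not fully alike. No test was made of these values.

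In 15 of the 17 members spread at least 2-fold in MuPOX08340, T was the highest library. These 17 were not limited to that mean, and POX03459 among them averaged 3.93 FPKM. Of the 413 genes with a mean of at least 10 FPKM and such a spread, T was the highest library for 93.9%. POX01165 was the extreme, with 48.4, 73.6 and 49.6 FPKM in MuPOX01907 F, S and T, 8, 43.9 and 123.0 FPKM in MuPOX08340 and 1.65, 67.2 and 80.1 FPKM in Ku70. It did not pass the test between the mutants (log2 0.31, SE 0.747, edgeR adjusted p = 0.753). POX07576 was spread at least 2-fold in every strain, with 134.8, 479.4 and 564.4 FPKM in MuPOX01907, 338.6, 668.8 and 1084.94 FPKM in MuPOX08340 and 0.780, 176.1 and 710.4 FPKM in Ku70, with F lowest and T highest each time. Across Ku70 S and T, 9 members were over 2-fold apart, and 49 were higher in T.

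**Figure D5:**
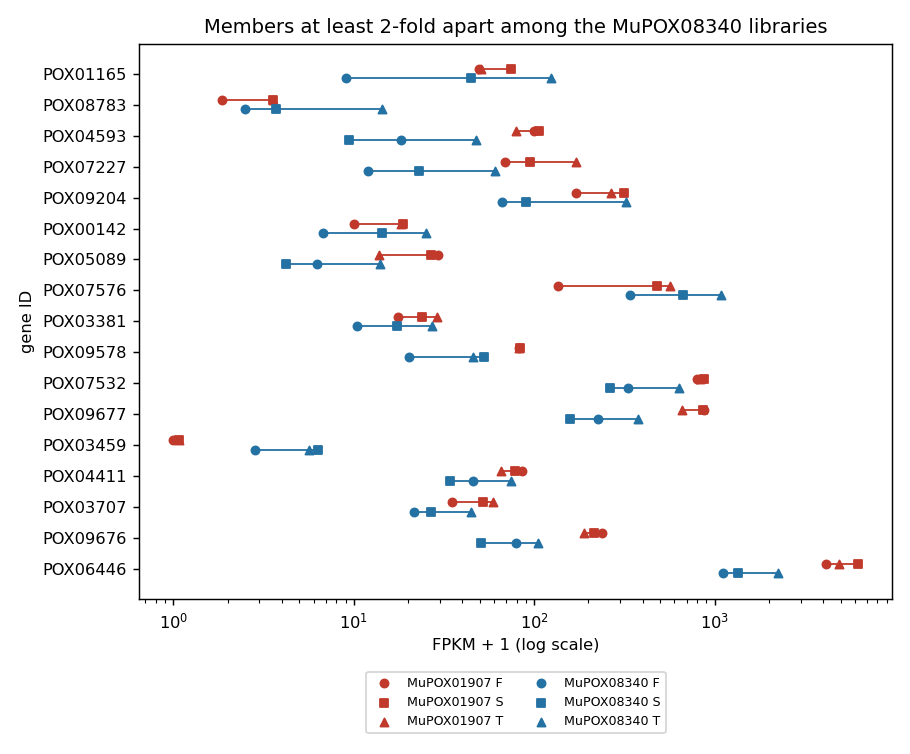
FPKM + 1 (x axis, log scale) in the 3 MuPOX01907 and the 3 MuPOX08340 libraries for the 17 members at least 2-fold apart among the MuPOX08340 libraries; lines join the lowest and the highest library, and symbols give the library letter. MuPOX08340 T is the highest of its strain in 15 of the 17.

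The 6 genes that met the Ku70 condition but were left out for their MuPOX01907 level were POX01417, POX04214, POX05132, POX06098, POX06151 and POX09674. POX01417 had 815.3, 830.2 and 822.6 FPKM in MuPOX01907, 40.4, 46.3 and 49.1 FPKM in MuPOX08340, and 3.38, 30.6 and 34.9 FPKM in Ku70 F, S and T. POX06151 averaged 481.7 ± 26.8 FPKM in MuPOX01907 and 35.2 ± 18.2 in MuPOX08340, and POX06098 averaged 107.4 ± 5.27 and 12.4 ± 1.11 FPKM (SD, n = 3 each). In MuPOX08340 these genes too lay far above Ku70 F.

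Against Ku70, 5 members were called higher and 14 lower in MuPOX01907, and 0 higher and 9 lower in MuPOX08340, by edgeR with all 9 libraries. Over all 8623 genes tested, 9.53% were called higher and 12.9% lower in MuPOX01907, and 2.78% and 5.14% in MuPOX08340. With Ku70 F left out, 13 members were called higher and 28 lower in MuPOX01907, and 3 higher and 22 lower in MuPOX08340, where 10% and 12.2% and 3.18% and 5.73% of all genes were. Both comparisons share the Ku70 libraries that chose the members, which were selected for high values in S and T, so nothing is read from these counts.

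The length that a gene's count and FPKM imply had a median of 904 bases over the 73 members, with a range from 205 to 3608 bases, and of 1266 bases over the 7081 genes that reached 10 FPKM in a Ku70 library. This is a description with no test.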

How the data were processed

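Every library came with 1 deposited file, which lists 9834 gene IDs and, per the file headers, their expected counts and FPKM. The authors' expected counts are estimated reads per gene and totalled 14412296 to 14802260 per library; they were rounded to whole numbers for count tests. The deposited FPKM values were used as they stand for the choice of members and for levels. Per the submitters' processing notes the tools were RSEM 1.2.12, DESeq2, Bowtie2 2.1.0 and BWA 0.7.10-r789, with no roles stated. The sources used here do not give the build, the annotation, the strandedness or how shared reads were split.

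Members, gene lists and named genes were chosen with earlier results of these data known. The mutants were compared with edgeR 4.0.16 (R 4.3.3): quasi-likelihood test, TMM scaling, filterByExpr, 6 mutant libraries, Benjamini-Hochberg adjustment, calls at adjusted p under 0.05 and an absolute log2 fold change of at least 1. Ku70 was kept out of that fit because the rule picks genes spread in Ku70. A standard error is the absolute log2 fold change divided by the square root of the test's F statistic. The fit was also run on simulated counts with the same spread setting for every gene, which these data need not share, and no result is read from it. Alternatives used limma 3.58.1 on log2(FPKM + 1), DESeq2 1.42.0, other scalings and filters, and the replicate letters as a block. Libraries of the letters F and T deviated together in the mutants (correlations of deviations from the strain mean over genes 0.619 for F and 0.499 for T). For S the correlation was 0.156, below the 0.270 between MuPOX01907 S and MuPOX08340 T. The letters were taken as pairs in the block alternative only, and the tests printed in the results are unpaired. Intervals on read ratios cover counting error only (scipy 1.17.1).

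Named members were, by rule, the 5 highest in Ku70 S and T, the 6 largest called changes without overlap in each direction between the mutants, genes in runs of at least 3 IDs, those at the edge of the threshold, those with the largest Ku70 fold or 0 in Ku70 F, up to 4 each at the Ku70 F level or above S and T in both mutants, and 3 of the genes left out. Members outside this rule were singled out after their values were seen: POX02048, POX09210, POX08902, POX09578, POX01165, POX03095, POX03096, POX03707, POX07668, POX07669, POX07750 and POX08182.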

Additional observations from a re-analysis of the deposited data

How the results depend on the processing

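Between the mutants, 26 members were called higher and 17 lower in MuPOX01907. Under other scalings, DESeq2, limma on log2(FPKM + 1) or log2(FPKM + 0.1), no filter and adjusted p alone, 25 to 29 were called higher and 17 to 23 lower. With the replicate block the counts were 27 and 17 and no named member changed its call. Leaving out 1 mutant library at a time gave 24 to 29 higher and 17 to 19 lower. A fit on all 9 libraries, in which Ku70 shares the estimate of the spread, gave 7 higher and 13 lower, all of them among the genes called without Ku70. Of the members named in the text, POX02048, POX03707, POX05089, POX07750, POX07971, POX08182, POX09076, POX09578, POX09676 and POX09677, called higher, and POX06513, called lower, lost their call in it. POX03666 was called lower under 4 alternatives.

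The set held 147 genes at a fold of 4 and 40 at a fold of 16, and between 56 and 90 under the other choices. Placement on the Ku70 F side ranged from 18 to 24 genes in MuPOX01907 and from 12 to 18 in MuPOX08340. Without 1 Ku70 library at a time, 3 to 13 members were called higher and 10 to 28 lower in MuPOX01907 than in Ku70, and 0 to 3 and 4 to 22 in MuPOX08340; the upper ends are without Ku70 F and the lower ends without Ku70 S. The median ratio of highest to lowest library was 1.39 in MuPOX01907 and 1.59 in MuPOX08340 with a pseudocount of 0.1, and 1.33 and 1.49 on TMM-rescaled FPKM. Genes with under 20 reads in a mutant, such as POX03459, POX09589 and POX00863, are limited by counting error.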
